A study of Mus musculus with 18 samples.

Results

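The 33 genes described here make, store, sense and export cholesterol, and they were picked out of the 23420 genes listed in the files by name. They comprise 16 enzymes of the synthesis pathway (Acat2, Hmgcs1, Mvk, Pmvk, Mvd, Idi1, Fdps, Fdft1, Sqle, Lss, Cyp51, Tm7sf2, Nsdhl, Hsd17b7, Ebp and Dhcr7) and 5 genes of the SREBP control system (Insig1, Insig2, Srebf1, Srebf2 and Scap). The others are the sterol carrier Stard4, the receptors Nr1h2 and Nr1h3, the 4 receptor targets Abca1, Abcg1, Apoe and Mylip, the oxysterol enzyme Ch25h, and Npc1, Lipa, Soat1 and Nceh1, which release or store sterols inside the cell. No lipoprotein uptake receptor is among the 33, although uptake is touched through Mylip. All 33 were among the 11876 genes that passed the filter on low counts and were tested.

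RNA was sequenced from bone marrow cells of C57BL/6 mice grown in GM-CSF at 20 ng/ml, replated at day 9, treated for 8 hours and sorted as live cells with high CD11c, an integrin of dendritic cells. Wild-type (WT) cultures received medium, LPS (bacterial lipopolysaccharide), the cytokines IL10 and TGF-β, or LPS with both cytokines. Cultures of the genotype Bat3 fl/fl CD11c Cre (cKO) received medium or LPS. In this genotype the recombinase is driven by the CD11c promoter, so Bat3, now called Bag6, is deleted only in cells that have used that promoter, and cells of a culture can keep the gene. Each of the 6 groups had 3 libraries. The labels speak of 5 biological replicates, and they tie no library to its own animal or culture. What the p-values capture is thus the scatter between these libraries. In the WT groups it may be technical, and in the cKO groups it includes a difference in sex-linked RNA given below.

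Cells build cholesterol from acetyl-CoA through mevalonate, squalene and lanosterol. When sterol in the endoplasmic reticulum is low, the escort protein SCAP carries SREBP2 to the Golgi, where it is cut to release a factor that switches on the enzymes, and INSIG proteins hold the complex back when sterol is plentiful. Surplus sterol is turned into oxysterols that activate the LXR receptors, which induce the exporters ABCA1 and ABCG1, apolipoprotein E and MYLIP, a ligase that degrades the LDL receptor. In macrophages and dendritic cells these arms are known to respond to Toll-like receptor ligands, and CH25H makes an oxysterol that restrains SREBP2.

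The promoters of the enzymes were searched because the enzymes moved together in the data below. RefSeq windows on build GRCm38.p6, reaching from 250 bases before a transcription start to 50 after it, were matched by symbol for 27 of the 33 genes. No window was given for Fdps, Fdft1, Sqle, Stard4, Abcg1 and Npc1. The NF-Y box, read as CCAAT on either strand (ATTGG on the other), was found in 12 of the 13 enzymes with a window and in 8 of the 14 other genes. It occurs in 37.4% of all 32851 windows and, counted per gene, in 43.4% of the 8871 tested genes with a window. The exception among the enzymes was Acat2. The sterol regulatory element core, CACCCCAC or its reverse GTGGGGTG, was found in 2 of the 27 genes, Hmgcs1 and Acat2 (7.4%), against 2.87% of all windows and 3.7% of tested genes. GC boxes, searched as GGGCGG on both strands, were present in 21 of the 27 genes (77.8%), against 35.7% of all windows and 68.1% of the tested genes. The E-box CACGTG was found in 6 of the 27 genes (22.2%), against 7.15% of windows and 11.9% of tested genes. The nuclear receptor half-site, AGGTCA on either strand, was found in 3 genes (11.1%), against 16.3% of windows and 15% of tested genes. Counting bases before the start alone gave the same number of genes for 4 of the 5 motifs and 19 in place of 21 for the GC box. Genes with several windows were counted once if any window matched, and a match to so short a word is a description of the letters only.

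Of the sequences that follow, the first 4 belong to enzymes whose RNA fell with LPS in both genotypes (Cyp51, Idi1, Lss and Ebp). Hmgcs1 is shown because it holds both motifs and was not called with LPS in WT cells, and Abca1 because it holds neither and rose. The sequences shown do not stand for all genes. Insig2, Mylip, Lipa, Soat1 and Nceh1 hold the NF-Y box and were called higher with LPS in WT cells. Nr1h2, Nr1h3 and Abca1, also called higher, lack it, and so do Acat2, Scap and Ch25h, which fell. Each runs 5′ to 3′ towards the start, bases inside the gene's own annotated span are left out, and capitals mark NF-Y boxes and the sterol regulatory element core. They lie at chr5:4104698-4104947 (minus strand), chr13:8885356-8885605 (plus strand), chr10:76531355-76531564 (plus strand), chrX:8193513-8193762 (minus strand), chr13:119690101-119690350 (plus strand) and chr4:53159989-53160145 (minus strand) of GRCm38.p6.
Cyp51: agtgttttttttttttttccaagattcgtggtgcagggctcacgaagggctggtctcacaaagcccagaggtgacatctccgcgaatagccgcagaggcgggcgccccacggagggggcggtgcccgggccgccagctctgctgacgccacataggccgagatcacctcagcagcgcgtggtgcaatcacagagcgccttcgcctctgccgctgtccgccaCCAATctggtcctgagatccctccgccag
Idi1: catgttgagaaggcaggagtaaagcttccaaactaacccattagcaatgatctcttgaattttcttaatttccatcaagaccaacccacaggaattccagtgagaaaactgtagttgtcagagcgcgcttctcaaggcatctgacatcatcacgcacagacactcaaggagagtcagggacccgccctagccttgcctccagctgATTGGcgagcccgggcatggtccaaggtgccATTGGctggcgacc
Lss: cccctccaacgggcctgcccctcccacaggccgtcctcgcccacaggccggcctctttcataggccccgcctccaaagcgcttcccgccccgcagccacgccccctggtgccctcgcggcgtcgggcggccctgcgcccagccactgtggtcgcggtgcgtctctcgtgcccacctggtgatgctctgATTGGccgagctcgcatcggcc
Ebp: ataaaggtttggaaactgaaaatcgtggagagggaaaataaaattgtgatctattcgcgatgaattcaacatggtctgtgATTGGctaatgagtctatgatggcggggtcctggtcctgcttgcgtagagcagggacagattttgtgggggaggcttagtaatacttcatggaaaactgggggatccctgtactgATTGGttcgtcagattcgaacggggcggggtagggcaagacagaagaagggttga
Hmgcs1: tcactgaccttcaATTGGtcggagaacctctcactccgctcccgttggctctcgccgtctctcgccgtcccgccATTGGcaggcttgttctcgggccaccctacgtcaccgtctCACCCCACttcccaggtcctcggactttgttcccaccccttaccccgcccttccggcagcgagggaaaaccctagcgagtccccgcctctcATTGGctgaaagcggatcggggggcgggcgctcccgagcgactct
Abca1: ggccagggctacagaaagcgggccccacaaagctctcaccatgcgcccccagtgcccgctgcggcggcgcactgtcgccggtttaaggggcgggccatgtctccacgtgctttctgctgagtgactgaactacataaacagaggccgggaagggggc

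**Figure D1:**
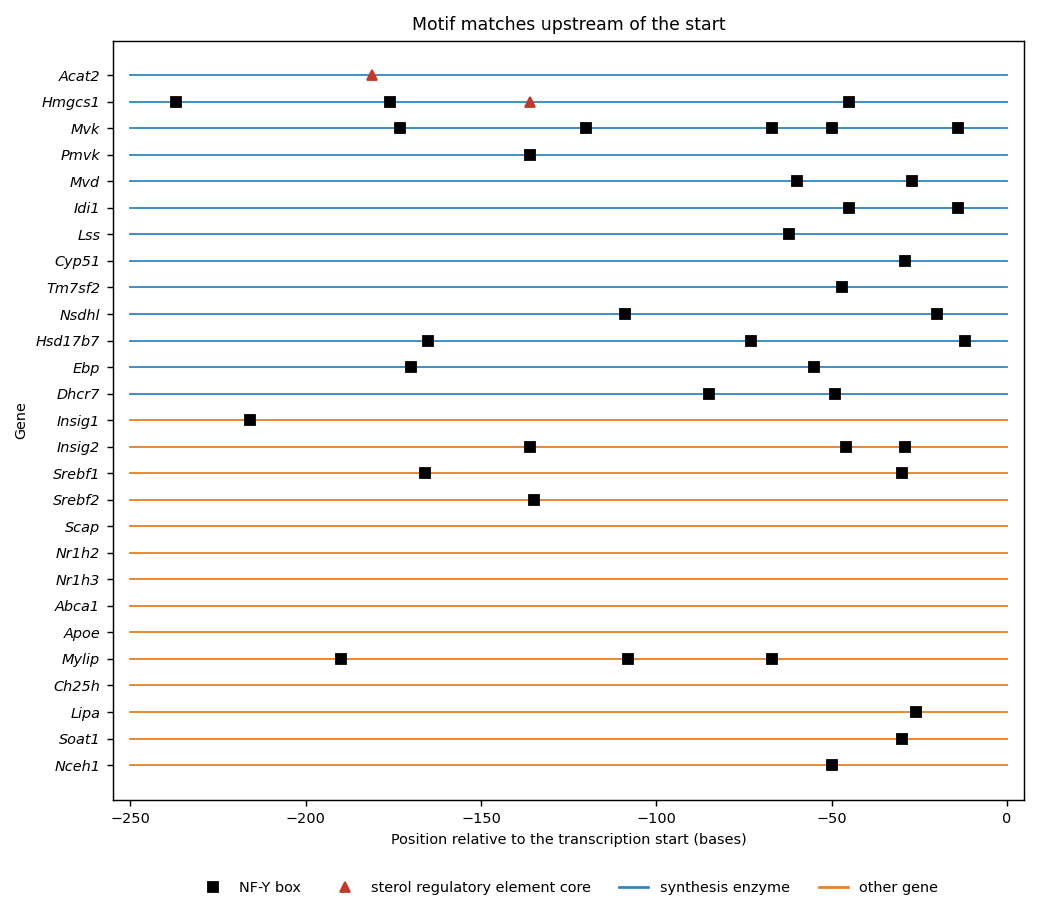
Motif matches in the 250 bases before the transcription start of the 27 genes with a promoter window; the x axis is the position in bases relative to the start, squares are NF-Y boxes, triangles are sterol regulatory element cores, and line colour separates the enzymes from the other genes. Matches of the enzymes lie between 12 and 237 bases before the start, and only Hmgcs1 carries both motifs.

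Total counts ranged from 8056831 to 12068759 per library. Bag6, counted over the whole gene and so also over exons outside the deletion, stood at 4.56 to 11.3 CPM (a gene's count relative to the library total over the tested genes, scaled by TMM) in the 6 cKO libraries and at 22.8 to 27.6 CPM in the 12 WT libraries. It read 4.81, 7.31 and 4.56 CPM in cKO medium and 11.3, 10.4 and 6.31 CPM in cKO LPS. By edgeR's quasi-likelihood test the log2 fold change with LPS in cKO cells was 0.76 (adjusted p = 0.0018). Between the genotypes it was -2.08 in medium and -1.36 under LPS, with an interaction of 0.72 (adjusted p = 0.048). The part of this difference in the results below was not tested. The dendritic markers Flt3 and Cd209a were near 0 in every group (at most 0.441 and 2.79 CPM), while Itgax, which encodes CD11c, ranged from 254 to 1010 CPM. Lymphocyte markers summed to at most 2.09 CPM. Granulocyte markers summed to 386 to 831 CPM in WT medium, 622 to 1810 with LPS, 4940 to 7500 with cytokines and 2810 to 3640 with both, and to 865 to 2560 in cKO medium and 453 to 1430 in cKO LPS. Dendritic markers summed to 3980 to 8910, 6920 to 7670, 1460 to 2020, 1270 to 1700, 5260 to 8100 and 7850 to 8300 CPM in the same order, and macrophage markers to 2620 to 2740, 3140 to 3210, 3390 to 4200, 4750 to 5210, 2740 to 3080 and 4260 to 4380 CPM. The first replicate of each cKO group carried Xist (526 and 1010 CPM) and under 1 CPM of Y-linked RNA, unlike the other libraries. Each cKO group thus mixed libraries with and without Y-linked RNA, whereas every WT library carried it. Annotated spans of 11 of the 33 genes (Acat2, Mvd, Fdps, Fdft1, Lss, Tm7sf2, Insig1, Srebf1, Srebf2, Nr1h3 and Npc1) overlap another gene, so reads of the overlapping parts could be shared unless the counting used strand, which no label states. Acat2 is also uncertain because of its near-identical copy Acat3. In these bulk samples, fewer cells of a type and less RNA per cell cannot be told apart.

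Compared per length, as TPM averaged over all 18 libraries, the most abundant of the 33 RNAs were Lipa (217 TPM), which frees cholesterol from lysosomal esters, Apoe (187 TPM) and Soat1 (143 TPM), which esterifies cholesterol for storage. Among the enzymes Fdps was highest at 127 TPM and Hsd17b7 lowest at 3.83 TPM. Apoe spanned the widest range between group means, 53.3-fold in CPM, followed by Abca1 at 18.2-fold and Nr1h3 at 13.5-fold. Srebf1 spanned the narrowest, 1.2-fold.

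LPS lowered the RNA of most synthesis enzymes in WT cells and raised that of the exporters and of the lysosomal and ester genes. Of the 33 genes, 10 rose and 16 fell in WT LPS against WT medium (edgeR's quasi-likelihood test, adjusted p under 0.05), where 29.8% of all tested genes rose and 28.9% fell. All 12 enzymes that were called fell, and the median log2 fold change of the 16 enzymes was -0.81 against 0.01 over all tested genes. On the log2(TPM + 1) scale, whose median over all genes lay at -0.19 in this comparison, 7 of the 33 rose and 18 fell, and the enzyme median was -0.94. Of 8 macrophage markers 5 rose and 3 fell with LPS, and 1 of 9 granulocyte markers rose. Their part in the differences below was not tested.

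Hsd17b7, Sqle and Cyp51 showed the steepest falls among the enzymes. Sqle, the squalene epoxidase and a rate-limiting step, read 86.4, 84.2 and 75.8 CPM in the medium libraries and 31.3, 25.1 and 34.8 CPM with LPS (log2 fold change -1.43 ± 0.12, adjusted p = 1.8e-09; the error is the SE throughout). Cyp51, which demethylates lanosterol, went from 84.2, 74.4 and 69.6 to 34.5, 31.9 and 32.2 CPM (log2 fold change -1.21 ± 0.10, adjusted p = 3.3e-09). In both genes the medium and LPS libraries were well apart. Hsd17b7, a sterol ketone reductase, went from 14.9, 17.6 and 11.4 to 5.82, 5.02 and 4.63 CPM (log2 fold change -1.50 ± 0.18, adjusted p = 3.8e-07). Acat2, the thiolase that opens the pathway in the cytosol, went from 42.4, 41.9 and 31.9 to 17.9, 19.3 and 19.3 CPM (log2 fold change -1.04 ± 0.12, adjusted p = 3.6e-07). In each of these 4 genes every LPS library lay below every medium library. How many of all tested genes had libraries without overlap was not counted. The genes given in full were picked by smallest p, so such separation, here and below, is a description and no added support. Lss, Mvk, Fdps, Idi1, Fdft1, Ebp, Tm7sf2 and Nsdhl also fell, with log2 fold changes between -0.97 (Idi1) and -0.34 (Nsdhl). Only Tm7sf2 among them had overlapping libraries, and the call on Nsdhl was lost when any of 4 of the 6 libraries was left out (adjusted p from 0.058 to 0.11). Hmgcs1, Pmvk, Mvd and Dhcr7 did not pass the test, with log2 fold changes from -0.48 to 0.19.

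**Figure D2:**
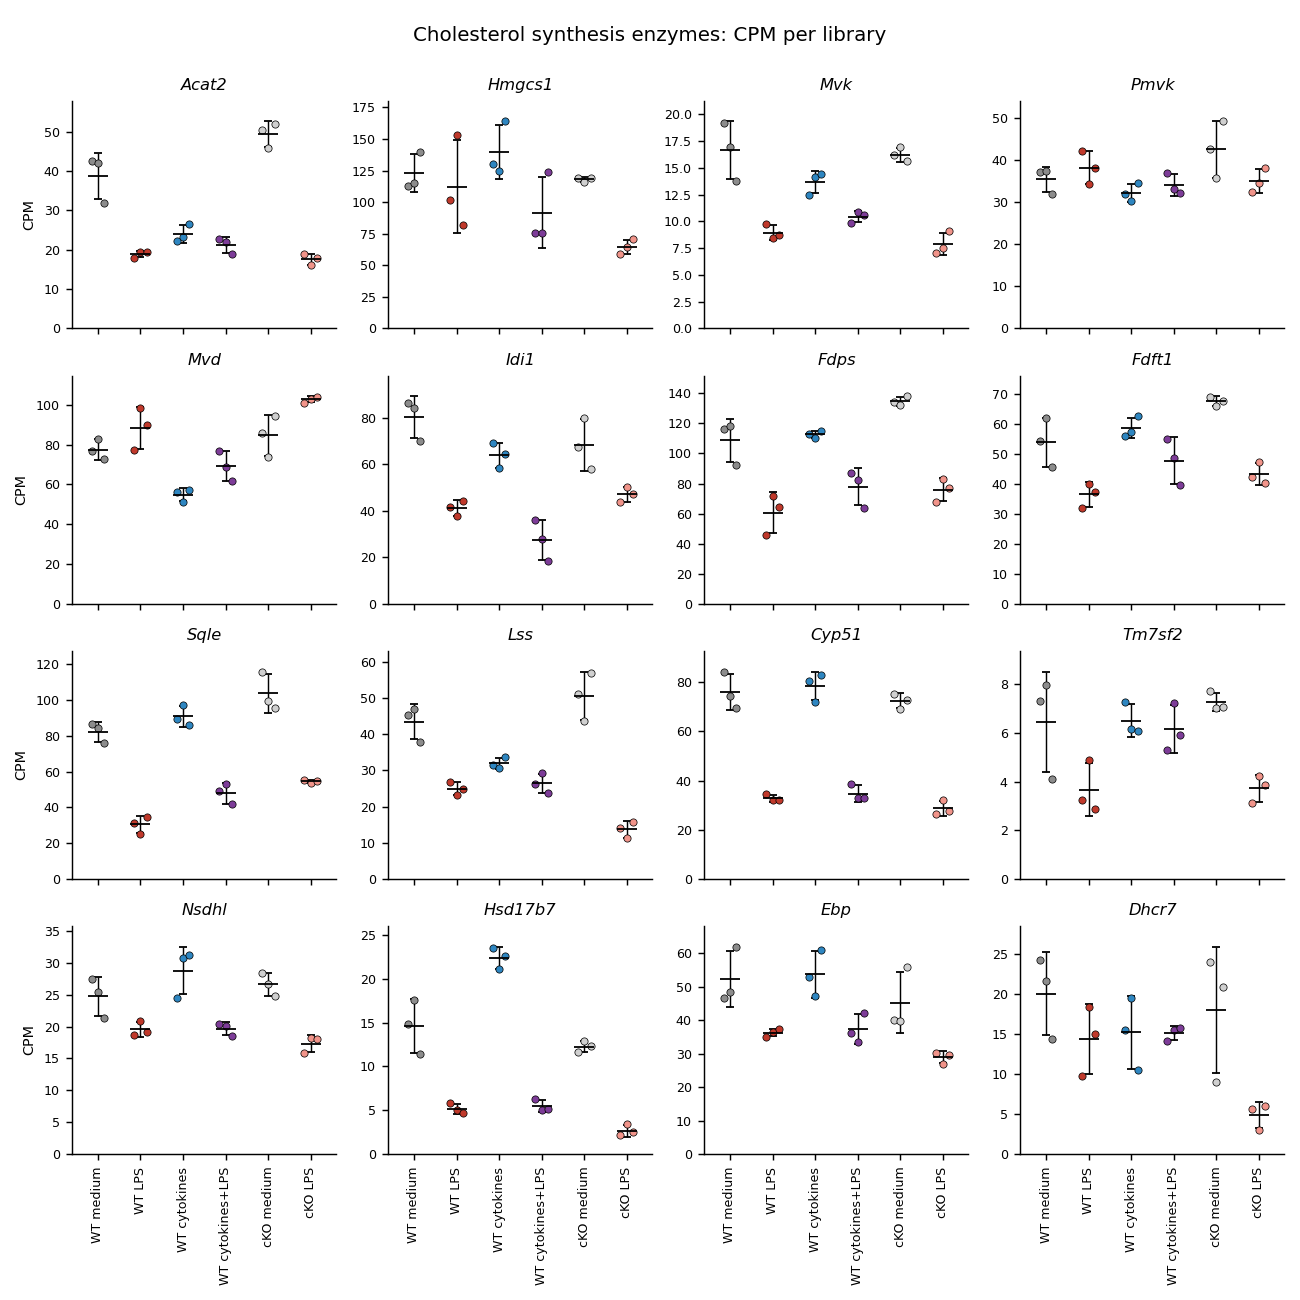
CPM (y axis, from 0) of the 16 synthesis enzymes in each of the 6 groups (x axis); points are the 3 libraries of a group and bars the mean and SD. Sqle, Cyp51, Hsd17b7 and Acat2 are lower in every LPS library than in every medium library of the same genotype.

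In the control system LPS moved single genes in opposite directions. Srebf2, which encodes SREBP2, fell (log2 fold change -0.80 ± 0.19, adjusted p = 0.0017), as did Scap (log2 fold change -0.55 ± 0.16, adjusted p = 0.0063). Insig2, one of the proteins that retain SCAP, rose from a mean of 23 to 39.4 CPM (log2 fold change 0.77 ± 0.11, adjusted p = 3.2e-06). Insig1 and Srebf1 did not pass the test (adjusted p = 0.52 and 0.18), although Srebf1 was called lower on the log2(TPM + 1) scale (-0.42, adjusted p = 0.008). Stard4, a carrier that moves cholesterol between membranes, fell from a mean of 20.3 to 8.51 CPM (log2 fold change -1.25 ± 0.17, adjusted p = 1.9e-06).

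The export arm went the other way. Abcg1, an exporter of cholesterol to lipoprotein particles, read 204, 212 and 226 CPM in medium and 361, 459 and 389 CPM with LPS (log2 fold change 0.91 ± 0.11, adjusted p = 7.1e-07). Abca1, which loads cholesterol onto apolipoproteins, read 21.9, 22.1 and 17.2 CPM in WT medium and 61, 44.5 and 48 CPM in WT LPS (log2 fold change 1.33 ± 0.17, adjusted p = 1.5e-06). Mylip, the LDL receptor ligase, read 3.14, 2.66 and 4.79 CPM in WT medium and 11.1, 12.5 and 10.1 CPM in WT LPS (log2 fold change 1.66 ± 0.22, adjusted p = 1.7e-06). No LPS library of these 3 genes overlapped a medium library. Apoe stayed at 5.63 to 12.5 CPM with LPS against 6 to 9.17 CPM in medium, with overlapping libraries (adjusted p = 0.78). Of the receptors, Nr1h3 (LXRα) rose from a mean of 8.05 to 15.6 CPM (log2 fold change 0.95 ± 0.26, adjusted p = 0.0043), and missed the threshold on the log2(TPM + 0.1) scale (adjusted p = 0.057). Nr1h2 (LXRβ) was called higher by 0.37 ± 0.09 on the log2 scale (adjusted p = 0.0011) and was not called on the log2(TPM + 1) scale (0.12, adjusted p = 0.22). Ch25h fell from a mean of 30 to 13.4 CPM (log2 fold change -1.16 ± 0.18, adjusted p = 1.5e-05).

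All 4 genes of lysosomal release and esters were called higher. Npc1, which exports cholesterol from lysosomes, read 49.6, 50.5 and 54 CPM in medium and 87.6, 109 and 101 CPM with LPS (log2 fold change 0.95 ± 0.10, adjusted p = 7.5e-08), with the libraries apart. Nceh1, a cholesteryl ester hydrolase, rose by 0.83 ± 0.15 on the log2 scale (adjusted p = 0.00012). The smaller differences of Lipa (0.47 ± 0.12, adjusted p = 0.0019) and Soat1 (0.25 ± 0.08, adjusted p = 0.009) were not called on the log2(TPM + 1) scale, where Lipa stood at 0.21 and Soat1 at -0.005. Of 33 other tested genes of the pathway, 9 rose and 12 fell with LPS. Those with the smallest p were Stard3, a late endosomal sterol carrier (from a mean of 37.9 to 129 CPM, log2 fold change 1.77 ± 0.09, adjusted p = 6.5e-13), Npc2, the partner of NPC1 (468 to 1840 CPM, 1.98 ± 0.14, adjusted p = 1.6e-10), and Acat1, the mitochondrial thiolase (129 to 54.3 CPM, -1.25 ± 0.09, adjusted p = 2.5e-10).

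**Figure D3:**
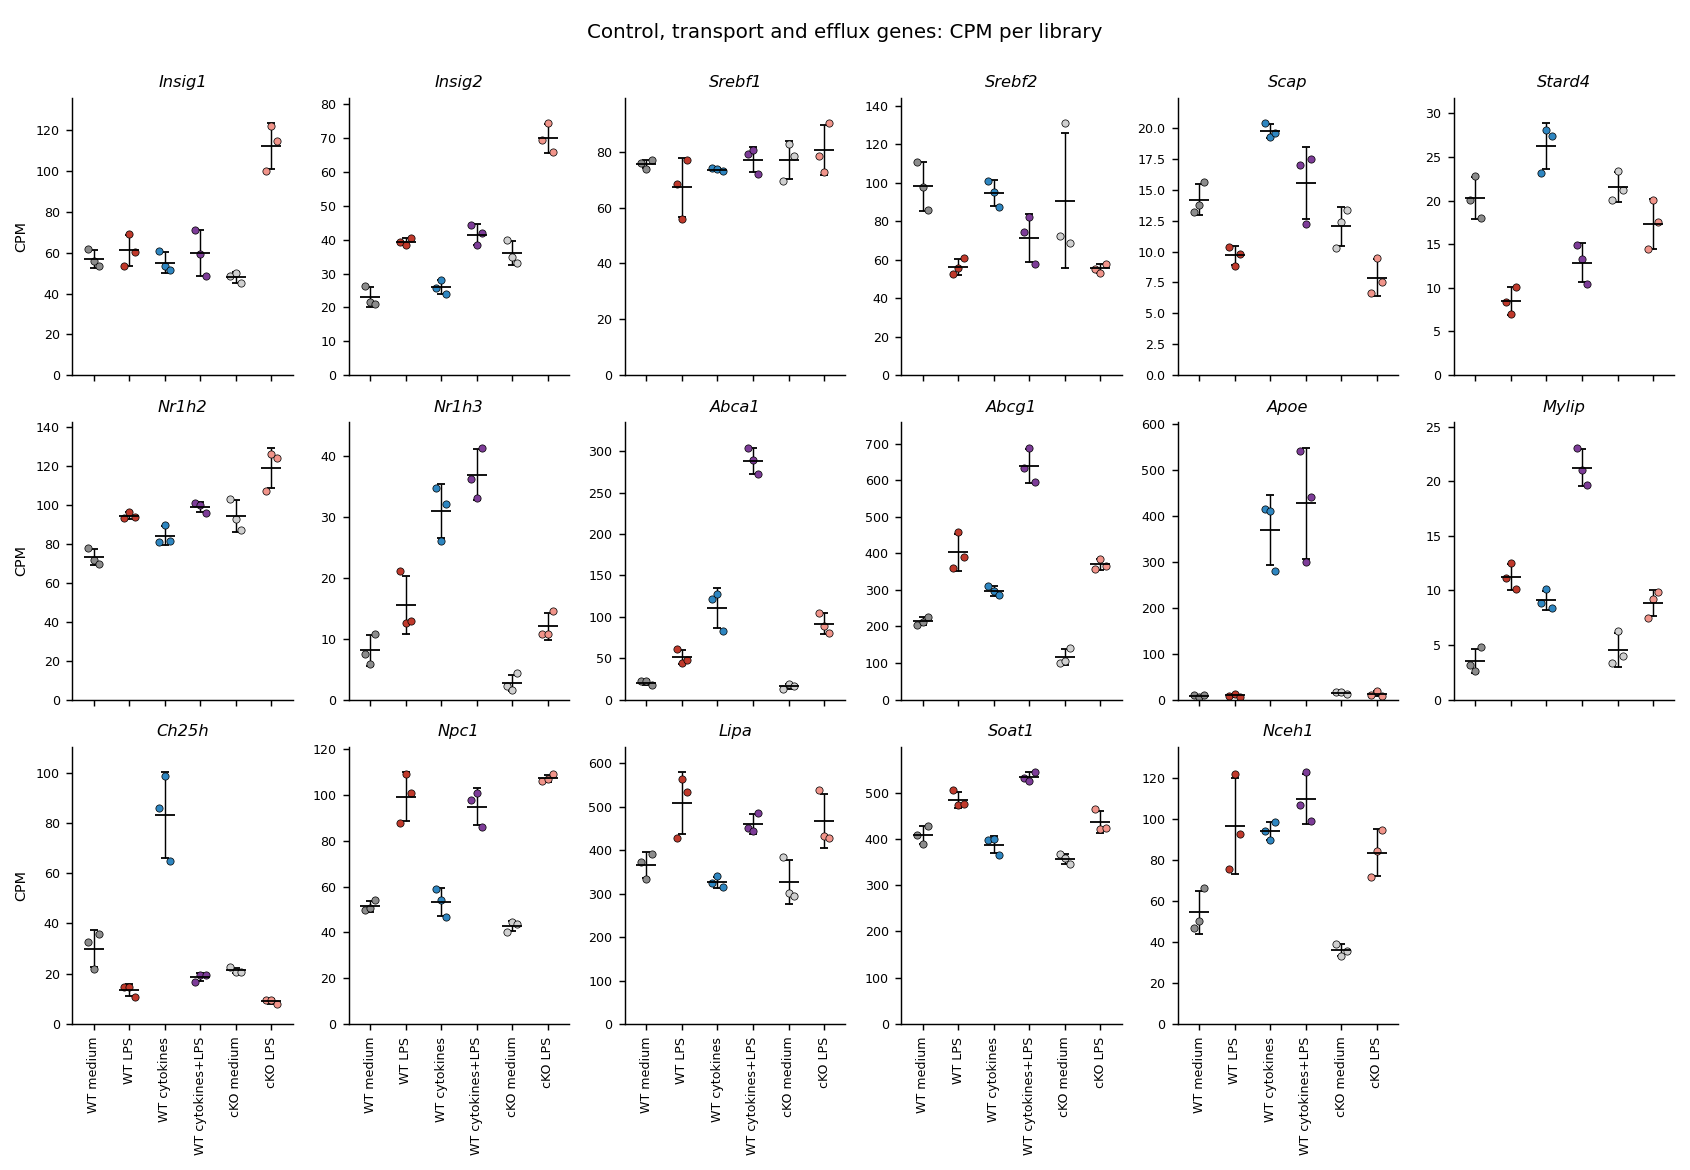
CPM (y axis, from 0) of the 17 genes of sterol control, carriage, export and release in each of the 6 groups (x axis, labelled in the bottom row and in the same order in every panel); points are the 3 libraries of a group and bars the mean and SD. Apoe is high in the cytokine groups alone, and Abca1 is highest where cytokines and LPS were combined.

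In cKO cells, too, LPS lowered most enzymes and raised both exporters, here against cKO medium. Of the 33 genes, 12 rose and 18 fell in cKO LPS against cKO medium, where 29.3% of all tested genes rose and 34.8% fell. Of the 16 enzymes 15 fell and 1, Mvd, rose, and their median log2 fold change was -0.90 against -0.09 over all tested genes. On the log2(TPM + 1) scale, with a median of -0.47 over all genes, 7 of the 33 rose and 24 fell, all 16 enzymes were called lower, and the enzyme median was -1.37. Among cell markers, 6 of 9 granulocyte markers were lower in cKO LPS, and of 8 macrophage markers 5 were higher and 3 lower. Their part in these differences was not tested.

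Lss, which closes squalene epoxide into lanosterol, read 51.2, 43.7 and 57.1 CPM in cKO medium and 14.1, 11.2 and 15.8 CPM with LPS (log2 fold change -1.88 ± 0.14, adjusted p = 2.3e-10). Hsd17b7 read 11.6, 12.9 and 12.3 CPM in cKO medium and 2.12, 3.43 and 2.46 CPM in cKO LPS (log2 fold change -2.20 ± 0.21, adjusted p = 1.1e-08). Cyp51 read 75.3, 69.2 and 72.7 CPM in cKO medium and 26.5, 32.1 and 27.5 CPM in cKO LPS (log2 fold change -1.34 ± 0.11, adjusted p = 7.9e-10). The LPS libraries of these sterol enzymes all lay far below the lowest medium library. Acat2 read 50.4, 45.8 and 52 CPM in cKO medium and 18.8, 16.1 and 17.8 CPM in cKO LPS (log2 fold change -1.49 ± 0.13, adjusted p = 2.1e-09), again without overlap. The other 11 enzymes that fell had log2 fold changes between -1.88 (Dhcr7, which completes cholesterol synthesis) and -0.28 (Pmvk). The calls on Pmvk, Mvd and Idi1 did not hold throughout. Idi1 lost its call in 1 of 17 alternatives (adjusted p = 0.061). With the cKO libraries numbered 1 dropped, 13 of the 16 enzymes were called lower and 0 higher. Pmvk was not called without any 1 of 5 of the 6 libraries (adjusted p from 0.051 to 0.26), and Mvd was not called without the second medium library (adjusted p = 0.15). Mvd also lost its call with upper-quartile factors and with the cKO libraries numbered 1 dropped. Its highest adjusted p over the alternatives was 0.33.

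Among the genes that rose, Abca1 read 13.3, 18.4 and 15.8 CPM in cKO medium and 105, 89.2 and 80.6 CPM with LPS (log2 fold change 2.53 ± 0.17, adjusted p = 2.6e-10). Abcg1 read 100, 106 and 141 CPM in cKO medium and 358, 386 and 367 CPM in cKO LPS (log2 fold change 1.68 ± 0.12, adjusted p = 1e-10). Npc1 read 40.3, 44.4 and 43.8 CPM in cKO medium and 106, 107 and 109 CPM in cKO LPS (log2 fold change 1.33 ± 0.10, adjusted p = 5.1e-10). Each of these transporters was higher in every LPS library. Insig1, a relative of Insig2 and itself a target of SREBP2, read 48.4, 50.3 and 45.1 CPM in cKO medium and 100, 122 and 115 CPM in cKO LPS (log2 fold change 1.23 ± 0.13, adjusted p = 3.5e-08). Nr1h3, Nceh1, Insig2, Mylip, Lipa, Nr1h2 and Soat1 were also called higher, from 2.13 (Nr1h3) to 0.29 (Soat1), but on the log2(TPM + 1) scale Lipa (-0.01, adjusted p = 0.93) and Mylip (0.34, adjusted p = 0.077) were not called. Soat1, Nr1h2 and the enzyme Mvd turned on the TPM scales, where their lowest log2 fold changes were -0.24, -0.19 and -0.25, and were called lower there. Srebf2 and Scap also fell (-0.71 and -0.61), and Ch25h fell (log2 fold change -1.24 ± 0.20, adjusted p = 1.7e-05). For Srebf2 1 cKO medium library was high (72.4, 131 and 68.7 CPM, against 55.4, 53.2 and 57.7 CPM with LPS). Over the alternatives its smallest fall was -0.35, and the call was lost in 1 of 17 (adjusted p = 0.052). Stard4, Apoe and Srebf1 did not pass the test. Of the 33 other tested pathway genes 10 rose and 16 fell, led by Stard3 (2.26 ± 0.09, adjusted p = 1.1e-14), Npc2 (1.97 ± 0.14, adjusted p = 1.2e-10) and Lpcat3, a phospholipid remodelling enzyme and LXR target (-1.28 ± 0.10, adjusted p = 3.9e-10).

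The difference between the LPS responses was tested as an interaction. In 6 of the 33 genes the response differed between the genotypes, 5 with a positive and 1 with a negative sign, where 7.33% of all tested genes had a positive and 10.1% a negative interaction (the sign is that of cKO minus WT). Of 8 macrophage markers 2 had a positive and 1 a negative interaction. Of 9 granulocyte markers 2 had a negative one, and 0 of 9 tested dendritic markers were called. The part of these markers was not tested. Insig1 had a log2 fold change with LPS of 0.10 ± 0.13 in WT cells and 1.23 ± 0.13 in cKO cells (difference 1.13 ± 0.18, adjusted p = 0.00038). Lss fell by 0.80 on the log2 scale in WT and by 1.88 in cKO cells (difference -1.08 ± 0.19, adjusted p = 0.00085). Insig1 was thus called with LPS in cKO cells and not in WT cells, while Lss was called lower in both. Abca1 rose by 1.33 and 2.53 (difference 1.21 ± 0.24, adjusted p = 0.0024). Abcg1 rose by 0.91 and 1.68 (difference 0.76 ± 0.16, adjusted p = 0.0031). Of these exporters Abcg1 was lower in cKO than in WT medium, and Abca1 did not pass that test. Stard4 stood at -1.25 and -0.31 (difference 0.94 ± 0.23, adjusted p = 0.009), and the call was lost on the log2(TPM + 1) scale (adjusted p = 0.057). The interaction of Sqle (difference 0.50 ± 0.16, adjusted p = 0.038) was lost on that scale (adjusted p = 0.37) and without any 1 of 7 of the 12 libraries (adjusted p from 0.051 to 0.088). On log2(TPM + 1), where the median over all genes was -0.25, 3 of the 33 were called with a positive and 7 with a negative sign, and with RLE scaling 7 and 1. Among all tested genes 419 were called with a positive and 2890 with a negative sign on log2(TPM + 1). Nr1h3 missed the threshold (difference 1.18 ± 0.41, adjusted p = 0.054) and passed it with RLE factors (adjusted p = 0.044), DESeq2 (adjusted p = 0.012) and the replicate number as a block (adjusted p = 0.019). Among the other tested pathway genes 2 had a positive and 4 a negative interaction, led by Erlin2, an endoplasmic reticulum membrane protein (-1.04 ± 0.12, adjusted p = 2e-05), Stard3 (0.49 ± 0.12, adjusted p = 0.0093) and Lpcat3 (-0.51 ± 0.14, adjusted p = 0.013).

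**Figure D4:**
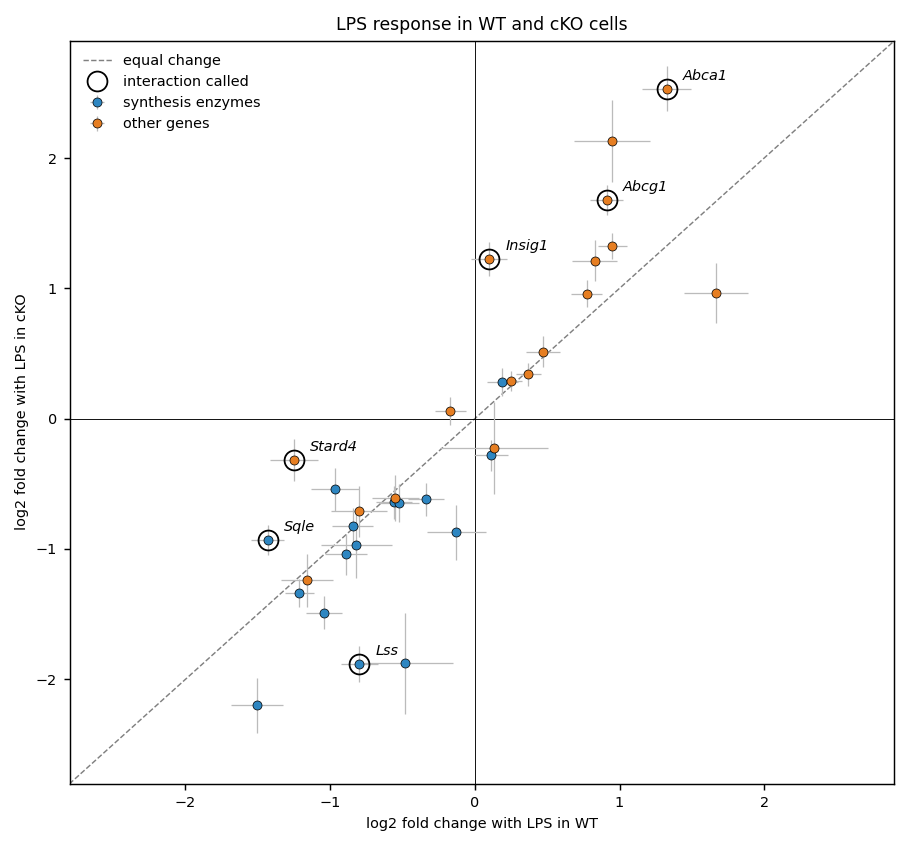
log2 fold change with LPS in WT (x axis) and in cKO cells (y axis) for the 33 genes, with SE bars; blue points are synthesis enzymes, orange points the other genes, rings mark genes with a called interaction, and the dashed line is equal change. Insig1, Abca1, Abcg1, Stard4 and Sqle lie above the line and Lss below it.

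With IL10 and TGF-β, genes of export and of their LXR control were higher in WT cells, and few enzymes were called. Of the 33 genes, 9 rose and 3 fell against medium, where 18.3% of all tested genes rose and 16.9% fell. All 4 receptor targets rose, and of the 16 enzymes 1 rose and 3 fell, with a median log2 fold change of 0.02. On the log2(TPM + 1) scale 8 of the 33 rose and 7 fell, with a median of -0.12 over all genes. The cytokine groups also stood apart in cell markers, with 9 of 9 granulocyte markers and 5 of 8 macrophage markers higher and 8 of 9 tested dendritic markers lower than in medium, and their part in the differences below was not tested.

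Apoe read 8.83, 6 and 9.17 CPM in medium and 414, 410 and 280 CPM with the cytokines (log2 fold change 5.52 ± 0.36, adjusted p = 2.5e-08). Abca1 read 122, 127 and 82.2 CPM with the cytokines against the medium values given above (log2 fold change 2.43 ± 0.17, adjusted p = 1e-09). Nr1h3 read 7.56, 5.83 and 10.8 CPM in WT medium and 34.7, 26.1 and 32.1 CPM in WT cytokines (log2 fold change 1.94 ± 0.25, adjusted p = 5.9e-06). The lowest cytokine library of each of these genes was above the highest medium library. Ch25h read 32.5, 21.7 and 35.8 CPM in WT medium and 85.8, 98.8 and 64.8 CPM in WT cytokines (log2 fold change 1.47 ± 0.17, adjusted p = 5.8e-07). Mylip read 8.83, 10.1 and 8.39 CPM (log2 fold change 1.37 ± 0.22, adjusted p = 4.8e-05). Nceh1 read 46.7, 50.3 and 66.3 CPM in WT medium and 94.4, 89.6 and 98.5 CPM in WT cytokines (log2 fold change 0.79 ± 0.15, adjusted p = 0.00041). None of these 3 genes had overlapping libraries. Abcg1 (log2 fold change 0.48 ± 0.11, adjusted p = 0.0022) and Hsd17b7 (log2 fold change 0.61 ± 0.16, adjusted p = 0.004) rose less, and Hsd17b7 was not called on the log2(TPM + 0.1) scale (adjusted p = 0.059). Scap was called higher at 0.47 ± 0.15 (adjusted p = 0.019), and the call was lost on the log2(TPM + 1) scale (adjusted p = 0.12) and without any 1 of 3 of the 6 libraries (adjusted p from 0.054 to 0.075).

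Acat2 was the enzyme that fell most clearly with the cytokines, at 22.2, 23.3 and 26.5 CPM (log2 fold change -0.69 ± 0.12, adjusted p = 1e-04). Mvd, the decarboxylase that makes isopentenyl diphosphate, read 76.7, 83 and 72.8 CPM in WT medium and 56.2, 51.1 and 57 CPM in WT cytokines (log2 fold change -0.50 ± 0.11, adjusted p = 0.00093). Lss fell by 0.44 on the log2 scale (adjusted p = 0.0079). The other 12 enzymes apart from Hsd17b7 did not pass the test, with log2 fold changes from -0.40 (Dhcr7) to 0.22 (Nsdhl), and neither did Insig1, Insig2, Srebf1, Srebf2, Stard4, Nr1h2, Npc1, Lipa or Soat1. Elsewhere in the pathway 11 of 33 tested genes rose and 8 fell. They were led by Apoc2, an apolipoprotein (2.12 ± 0.17, adjusted p = 3.1e-09), Hsd3b7, a bile acid pathway enzyme (1.03 ± 0.10, adjusted p = 4.5e-08), and Stard3 (0.75 ± 0.09, adjusted p = 7.3e-07).

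With LPS present, the cytokines again raised the 4 receptor targets. Against WT LPS, 11 of the 33 genes rose and 2 fell in cells with LPS and cytokines, where 19.1% of all tested genes rose and 21.1% fell, and the median of the 33 was 0.18 against -0.01 over all tested genes. Abca1 read 304, 289 and 272 CPM with both (log2 fold change 2.50 ± 0.16, adjusted p = 7.8e-10). Apoe read 8.28, 12.5 and 5.63 CPM with LPS alone and 540, 299 and 441 CPM with both (log2 fold change 5.603 ± 0.36, adjusted p = 3e-08). Abcg1 read 633, 690 and 597 CPM (log2 fold change 0.67 ± 0.11, adjusted p = 6.6e-05). The combined treatment held the highest group mean of these 3 genes in the series, though for Apoe its libraries overlapped those with cytokines alone. Nr1h3 read 21.1, 12.6 and 12.9 CPM in WT LPS and 36.3, 33.1 and 41.4 CPM in WT LPS with cytokines (log2 fold change 1.25 ± 0.24, adjusted p = 4e-04). Mylip read 23.1, 21 and 19.7 CPM (log2 fold change 0.92 ± 0.19, adjusted p = 0.00065). Granulocyte (7 of 9) and macrophage markers (5 of 8) were again higher and dendritic markers lower (8 of 9), and their part was not tested.

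Several genes that LPS lowered were higher with LPS and cytokines than with LPS alone. Sqle read 49, 52.8 and 41.6 CPM against the LPS values given above (log2 fold change 0.65 ± 0.12, adjusted p = 0.00014). Scap read 10.4, 8.87 and 9.82 CPM in WT LPS and 17, 12.2 and 17.5 CPM in WT LPS with cytokines (log2 fold change 0.68 ± 0.16, adjusted p = 0.0019). Stard4 read 8.39, 7 and 10.1 CPM in WT LPS and 14.9, 13.3 and 10.5 CPM in WT LPS with cytokines (log2 fold change 0.60 ± 0.17, adjusted p = 0.0087). The libraries did not overlap in these genes, but the call on Stard4 was lost without the second LPS library (adjusted p = 0.053) or the first library with both (adjusted p = 0.056). Without LPS the cytokines shifted Scap by 0.47 on the log2 scale (called), Stard4 by 0.37 and Sqle by 0.15 (neither called). Of these genes only Sqle had a called cytokine by LPS interaction, given below. Fdft1, Tm7sf2 and Fdps were called higher and Idi1 and Mvd lower, between -0.59 and 0.75, and each of these 5 calls was lost in at least 1 of the fits that left out 1 of the 6 libraries (adjusted p from 0.058 to 0.25 in those). The other 20 genes did not pass the test. Of the 33 other pathway genes 10 rose and 11 fell, led by the lipoprotein receptor Scarb1 (1.00 ± 0.09, adjusted p = 9.1e-09), the sterol carrier Stard5 (0.96 ± 0.09, adjusted p = 4.6e-08) and Lpcat3 (0.95 ± 0.09, adjusted p = 8.9e-08).

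LPS added to cytokines was then compared with cytokines alone, a comparison that shares its cytokine plus LPS libraries with the previous one. Of the 33 genes 9 rose and 11 fell, where 23.9% of all tested genes rose and 23.1% fell. Of the 16 enzymes 9 fell and 1, Mvd, rose, and the enzyme median was -0.46 against -0.002 over all tested genes. On the log2(TPM + 1) scale, with a median of -0.11 over all genes, 7 of the 33 rose and 16 fell. Ch25h read 85.8, 98.8 and 64.8 CPM with cytokines and 16.7, 19.6 and 19.5 CPM with both (log2 fold change -2.16 ± 0.17, adjusted p = 8.7e-09). Hsd17b7 read 23.6, 21.1 and 22.6 CPM in WT cytokines and 6.27, 5.01 and 5.13 CPM in WT LPS with cytokines (log2 fold change -2.03 ± 0.17, adjusted p = 1.4e-08). These were the largest falls among the 33 in this comparison. Cyp51 read 80.6, 71.9 and 83 CPM in WT cytokines and 38.6, 32.7 and 32.7 CPM in WT LPS with cytokines (log2 fold change -1.18 ± 0.10, adjusted p = 1.8e-08). Idi1, the isomerase of isopentenyl diphosphate, read 69, 58.4 and 64.3 CPM in WT cytokines and 35.8, 27.7 and 18.5 CPM in WT LPS with cytokines (log2 fold change -1.22 ± 0.17, adjusted p = 9e-06). Sqle read 89.2, 97.5 and 86 CPM with cytokines (log2 fold change -0.93 ± 0.11, adjusted p = 1.4e-06). No library with LPS reached the range of the cytokine libraries in these enzymes. Stard4, Nsdhl, Fdps, Ebp, Hmgcs1 and Mvk also fell, from -1.02 (Stard4) to -0.39 (Mvk). The calls on Hmgcs1, Mvk and Mvd were each lost in some of the fits that left out 1 of the 6 libraries (adjusted p from 0.06 to 0.11), and Mvd was not called on the log2(TPM + 1) scale (adjusted p = 0.12).

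Abca1 (log2 fold change 1.39 ± 0.16, adjusted p = 8.3e-07) and Abcg1 (log2 fold change 1.103 ± 0.11, adjusted p = 1.6e-07) rose further when LPS was added to cytokines. Npc1 read 58.9, 53.9 and 46.6 CPM with cytokines and 97.8, 101 and 86 CPM with both (log2 fold change 0.84 ± 0.10, adjusted p = 1e-06). All 3 transporters were higher in every library with LPS. Mylip, Insig2, Lipa, Soat1 and Nr1h2 were also called higher, from 1.22 (Mylip) to 0.23 (Nr1h2), and Nr1h2 lost its call in 7 of 16 alternatives, with an adjusted p of up to 0.38. Apoe and Nr1h3 did not pass the test (adjusted p = 0.56 and 0.38), and nor did 11 other genes (Acat2, Pmvk, Fdft1, Lss, Tm7sf2, Dhcr7, Insig1, Srebf1, Srebf2, Scap and Nceh1). Of these, Fdft1 (-0.30, adjusted p = 0.053) was called lower in 10 of 16 alternatives. Outside the members, 7 of 33 pathway genes rose and 10 fell, led by Acat1 (-1.16 ± 0.09, adjusted p = 4.7e-09), Stard3 (0.72 ± 0.09, adjusted p = 8.4e-07) and Stard5 (0.71 ± 0.09, adjusted p = 1.9e-06).

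Whether cytokines changed the LPS response was tested as an interaction in WT cells. It was called for 4 of the 33 genes, 3 positive and 1 negative, where 8.88% of all tested genes had a positive and 12.1% a negative interaction. Acat2 fell by 1.04 on the log2 scale with LPS in medium and stood at -0.18 ± 0.12 with LPS on top of cytokines (difference 0.86 ± 0.17, adjusted p = 0.0011). Ch25h fell by 1.16 and 2.16 (difference -1 ± 0.25, adjusted p = 0.0065). The cytokines had lowered Acat2 and raised Ch25h before LPS was considered. Positive interactions of Sqle (difference 0.51 ± 0.16, adjusted p = 0.03) and Lss (difference 0.52 ± 0.18, adjusted p = 0.043) were lost without any 1 of 7 and 8 of the 12 libraries (adjusted p from 0.057 to 0.12). For Abca1 the difference was 0.06 with a 95% interval from -0.42 to 0.54. Outside the members, 7 of 33 pathway genes had a positive and 6 a negative interaction, among them Stard3 (-1.05 ± 0.12, adjusted p = 1.7e-06) and Apoc2 (-1.54 ± 0.24, adjusted p = 5.9e-05).

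**Figure D5:**
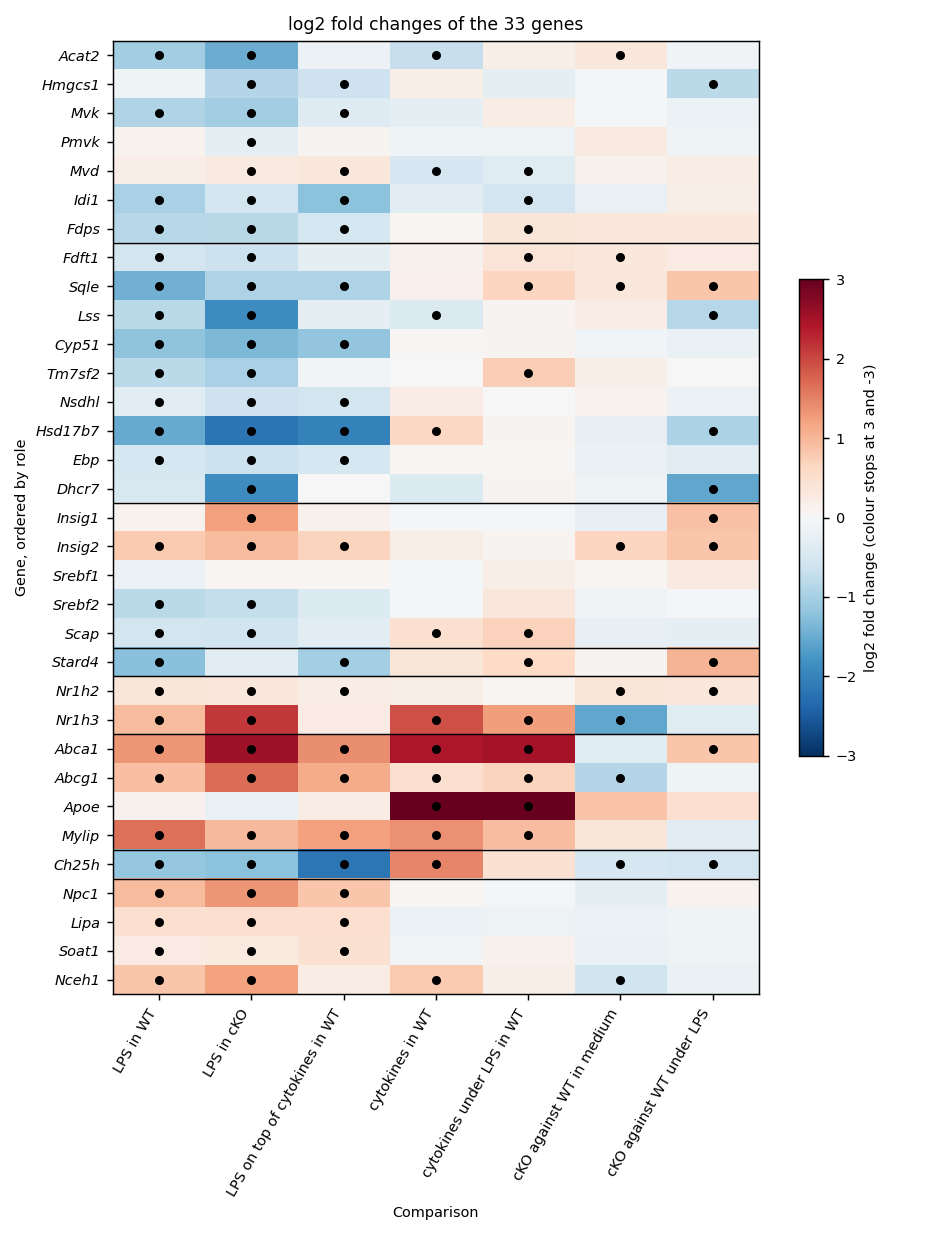
log2 fold changes of the 33 genes (y axis, ordered by role with lines between roles) in the 7 comparisons between groups (x axis); red is higher, blue lower, colour stops at 3 and -3, and black dots mark calls at an adjusted p under 0.05. Under the 3 LPS comparisons most enzymes are blue and the exporters Abca1 and Abcg1 red. Mvd is above 0 in all 3, and Pmvk is above 0 in those of WT cells. Apoe exceeds the colour range under both cytokine comparisons.

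Without stimulation, cKO cells differed from WT cells in few of these genes. Of the 33, 5 were higher and 4 lower, where 15.8% of all tested genes were higher and 14.4% lower, so the shares were near those of all genes. With RLE factors the split was 4 higher and 6 lower, and on the log2(TPM + 1) scale 2 and 7. The medians over all genes were -0.03 and -0.07 in these fits. Abcg1 read 204, 212 and 226 CPM in WT and 100, 106 and 141 CPM in cKO cells (log2 fold change -0.89 ± 0.11, adjusted p = 1.4e-05). Nr1h3 read 7.56, 5.83 and 10.8 CPM in WT medium and 2.27, 1.64 and 4.28 CPM in cKO medium (log2 fold change -1.56 ± 0.31, adjusted p = 0.0011). Nceh1 read 46.7, 50.3 and 66.3 CPM in WT medium and 39.2, 33.4 and 35.5 CPM in cKO medium (log2 fold change -0.60 ± 0.16, adjusted p = 0.0079), and the call was lost without the third WT library (adjusted p = 0.055). These 3 genes were lower in every cKO library. Insig2 read 26.3, 21.7 and 21.1 CPM in WT medium and 39.9, 34.8 and 33.1 CPM in cKO medium (log2 fold change 0.64 ± 0.11, adjusted p = 0.00019). Nr1h2 read 77.6, 71.8 and 69.6 CPM in WT medium and 103, 92.6 and 87.3 CPM in cKO medium (log2 fold change 0.37 ± 0.09, adjusted p = 0.0035). Both were higher in every cKO library.

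The remaining calls between the genotypes in medium depended on single libraries and on scaling or filter. Of the 3 enzymes called, 2 were called with RLE or upper-quartile factors, DESeq2 or Rn45s left out, and 0 with no count filter, with only the groups compared or on the TPM scales. Sqle read 86.4, 84.2 and 75.8 CPM in WT medium and 116, 99.7 and 95.5 CPM in cKO medium (log2 fold change 0.34 ± 0.11, adjusted p = 0.026). Acat2 read 42.4, 41.9 and 31.9 CPM in WT medium and 50.4, 45.8 and 52 CPM in cKO medium (log2 fold change 0.35 ± 0.12, adjusted p = 0.027). Ch25h read 32.5, 21.7 and 35.8 CPM in WT medium and 22.5, 20.7 and 20.7 CPM in cKO medium (log2 fold change -0.50 ± 0.17, adjusted p = 0.035), with overlapping libraries. These 3 and Fdft1 (log2 fold change 0.33 ± 0.12, adjusted p = 0.046) lost their calls without the third WT library (adjusted p from 0.11 to 0.22). The same calls went when the cKO libraries numbered 1 were dropped (adjusted p from 0.076 to 0.16), which left 5 of the 33 called. The other 24 genes did not pass the test. Among them Apoe (log2 fold change 0.86) read 8.83, 6 and 9.17 CPM in WT medium and 16, 15.4 and 12.3 CPM in cKO medium, without overlap. Apoe was called higher in 2 of 17 alternatives. Npc1 (-0.26) and Soat1 (-0.19) were called lower in 6 of 17 each. Srebf2 showed 1 high cKO library (72.4, 131 and 68.7 CPM), and without it the gene was called lower (-0.48, adjusted p = 0.0092). Granulocyte markers were higher in cKO medium in 7 of 9 cases, and the ribosomal precursor Rn45s took 1.28 to 4.01% of counts in cKO medium against 6.38 to 8.02% in WT medium. Their part in these differences was not tested. Elsewhere in the pathway 5 of 33 tested genes were higher and 5 lower, among them the lipoprotein receptor Vldlr (1.87 ± 0.32, adjusted p = 0.00025) and Rxra, the LXR partner (-0.82 ± 0.19, adjusted p = 0.0033).

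Under LPS the genotypes differed in 11 of the 33 genes, 6 higher and 5 lower in cKO cells, where 16% of all tested genes were higher and 19.3% lower. The shares were again near those of all genes. The TMM factors were 0.797 to 0.807 in the cKO LPS libraries and 0.912 to 1 in the WT LPS libraries, and the split depended on scaling. It was 8 higher and 4 lower with RLE factors and 5 and 18 on the log2(TPM + 1) scale, whose median over all genes was -0.31. Of 8 macrophage markers 2 were higher and 1 lower in cKO LPS. Of 9 tested dendritic markers 1 was lower, and 0 of 9 granulocyte markers were called. The part of these markers in the differences was not tested. Both INSIG genes were higher in cKO cells. Insig2 read 39.4, 38.4 and 40.5 CPM in WT LPS and 69.4, 74.4 and 65.8 CPM in cKO LPS (log2 fold change 0.83 ± 0.11, adjusted p = 9.3e-06). Insig1 read 53.6, 69.2 and 60.6 CPM in WT LPS and 100, 122 and 115 CPM in cKO LPS (log2 fold change 0.88 ± 0.13, adjusted p = 2.9e-05). Stard4 read 8.39, 7 and 10.1 CPM in WT LPS and 14.4, 20.1 and 17.5 CPM in cKO LPS (log2 fold change 1.02 ± 0.18, adjusted p = 0.00016). In all 3 every cKO library was above every WT library. Abca1 read 61, 44.5 and 48 CPM in WT LPS and 105, 89.2 and 80.6 CPM in cKO LPS (log2 fold change 0.84 ± 0.16, adjusted p = 0.00055), whereas Abcg1, lower in medium, did not pass the test under LPS (adjusted p = 0.43) and was called lower on the log2(TPM + 1) scale (-0.47, adjusted p = 0.0016). Nr1h2 read 93, 96.3 and 93.8 CPM in WT LPS and 107, 126 and 124 CPM in cKO LPS (log2 fold change 0.34 ± 0.09, adjusted p = 0.0055), and on the log2(TPM + 1) scale its sign turned (-0.03, adjusted p = 0.79).

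Of the enzymes, 1 was higher and 4 were lower in cKO cells under LPS, and 11 were not called. On the log2(TPM + 1) scale 1 was higher and 10 were lower, with an enzyme median of -0.48 against -0.31 over all tested genes. Part of that shift was thus shared by all genes. Sqle read 31.3, 25.1 and 34.8 CPM in WT and 55.2, 53.8 and 54.5 CPM in cKO cells (log2 fold change 0.84 ± 0.12, adjusted p = 2.8e-05). Lss, the next enzyme of the pathway, read 26.9, 23.3 and 24.8 CPM in WT LPS and 14.1, 11.2 and 15.8 CPM in cKO LPS (log2 fold change -0.86 ± 0.14, adjusted p = 0.00011). These neighbours in the pathway thus differed in opposite directions, without overlap of libraries in either. Hsd17b7 read 5.82, 5.02 and 4.63 CPM in WT LPS and 2.12, 3.43 and 2.46 CPM in cKO LPS (log2 fold change -0.95 ± 0.23, adjusted p = 0.0032). Dhcr7 (log2 fold change -1.55 ± 0.40, adjusted p = 0.0065) and Hmgcs1 (log2 fold change -0.80 ± 0.21, adjusted p = 0.0085) were also lower. Ch25h was called lower at -0.58 ± 0.21 (adjusted p = 0.038), and the call was lost without any 1 of 5 of the 6 libraries (adjusted p from 0.081 to 0.15) and with DESeq2 (adjusted p = 0.051). The other 22 genes did not pass the test. Of the 33 other pathway genes 5 were higher and 8 lower, led by Erlin2 (-0.94 ± 0.09, adjusted p = 2.5e-07), Lpcat3 (-0.61 ± 0.10, adjusted p = 8.5e-05) and Stard3 (0.41 ± 0.08, adjusted p = 0.00087). The cKO comparisons share their cKO and WT libraries with the LPS comparisons above, so that agreement in sign between them is not separate evidence.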

How the data were processed

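RNA of 18 libraries was analysed. The deposited files give, per gene, expected counts and TPM that the authors made with RSEM on build mm10 after bcl2fastq, per the submitters' processing notes; versions, annotation and strand use are not given in the sources used here. Expected counts were rounded to whole numbers, filtered with filterByExpr (11876 of 23420 genes kept), scaled by TMM and fitted over all 6 groups with edgeR 4.0.16 (robust quasi-likelihood) in R 4.3.3; p-values were adjusted by Benjamini-Hochberg over all tested genes, with calls at 0.05. CPM use the TMM-scaled totals over the 11876 kept genes. Totals over all 23420 genes were 8056831 to 12068759 counts. The common biological coefficient of variation was 0.13, and all replicate pairs differed by more than sampling noise (chi-square per degree of freedom 3.64 to 36.3). Alternatives were RLE and upper-quartile factors, DESeq2 1.42.0, other filters, only the groups compared, a replicate block, limma 3.58.1 on log2(TPM + 1) or log2(TPM + 0.1), Rn45s left out, and libraries left out. Member counts under alternatives are mostly given without the share of all genes called in the same fit. Same-numbered libraries deviated together (every correlation over 0.1 across 8118 genes) in 2 of 15 pairs of groups, WT medium with WT cytokines (0.35, 0.21 and 0.44) and WT medium with LPS plus cytokines, which are not compared directly; this pairing comes from the data, not the labels. At most 8 called members per comparison, in order of p, are given in full, and the 3 called other pathway genes with the smallest p, of which some are not reported here. The members and lists were chosen with earlier results of these data known.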

Additional observations from a re-analysis of the deposited data

Results flagged for a closer look

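In 6 of the 33 genes the LPS response differed between the genotypes by the interaction test of edgeR (differences in log2 fold change, cKO minus WT): Insig1 by 1.13, Abca1 by 1.21, Stard4 by 0.94, Abcg1 by 0.76, Sqle by 0.50 and Lss by -1.08. Over all tested genes 17.4% had this interaction, near the share of the 33. In 4 genes the LPS response in WT cells differed with cytokines present (cytokines minus none): Acat2 by 0.86, Lss by 0.52, Sqle by 0.51 and Ch25h by -1. Over all tested genes 20.9% had the cytokine interaction, so the share of the 33 was not higher. The calls on Sqle in both tests, on Lss with cytokines and on Stard4 between the genotypes were lost under alternatives given with them above.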

How the results depend on the processing

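Of the recomputed results for genes given in full, 1093 kept their direction and their side of the threshold, 51 lost the threshold and 2 reversed, both for Nr1h2 under LPS between the genotypes (-0.028 and -0.029 on the log2(TPM + 1) and log2(TPM + 0.1) scales); the cause was not tested. Among the members given more briefly, the TPM scales also turned Soat1 with LPS in WT cells (lowest -0.005) and Mvd, Nr1h2, Soat1 and Lipa with LPS in cKO cells (lowest -0.245, -0.191, -0.239 and -0.012). On these scales the members called between the genotypes under LPS were 23 and 22 in place of 11. For the genotype by LPS interaction they were 10 and 11 in place of 6, with 3309 and 3403 genes in place of 2070. With the cKO libraries numbered 1 dropped, which leaves fewer libraries, 5 members in place of 9 were called between the genotypes in medium, and 1268 genes had the interaction. Fitting only the groups compared gave 2306 genes in medium in place of 3583.

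Leaving out 1 library at a time, members called numbered 25 to 26 for LPS in WT cells, 11 to 13 for cytokines, 10 to 12 for cytokines under LPS, 17 to 19 for LPS on top of cytokines, 4 to 9 for the genotypes in medium, 10 to 12 for the genotypes under LPS, 29 for LPS in cKO cells, 5 to 7 for the genotype interaction and 2 to 7 for the cytokine interaction (7 without the third WT medium library, 2 among others without the first). Genes called numbered 6296 to 6731 for LPS in WT cells, 3292 to 4008 for cytokines, 4098 to 4405 for cytokines under LPS, 4572 to 5096 for LPS on top of cytokines, 2527 to 3545 for the genotypes in medium, 3077 to 4199 for the genotypes under LPS, 7074 to 7410 for LPS in cKO cells, 1465 to 2307 for the genotype interaction and 1982 to 2493 for the cytokine interaction.

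With the replicate number as a block, the WT cytokine comparison kept its count of 12 members, and no member call changed. In the cytokine interaction, where WT medium pairs with both cytokine groups and the other pairs of groups share only a number, the block gave 5 members in place of 4, with Nceh1 added (-0.607, adjusted p = 0.044). Elsewhere the libraries share only a number, and the block gave 21 members in place of 20 for LPS on top of cytokines, 12 in place of 11 between the genotypes under LPS and 7 in place of 6 for the genotype interaction. The number of libraries, 3 per group, limits the smallest differences that could be called.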
